A study of Mus musculus with 22 samples.

Results

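The Sox and T-box genes encode transcription factors that set cell fate in development, and 32 of them, 18 SOX and 14 T-box genes, were described here by the methylation of their promoters and gene bodies. Their members are CpG positions, that is, single cytosines of a CpG with the strands kept apart, that were covered by at least 10 reads in all 22 mice and lay in the gene body or within 2 kb of a RefSeq transcription start site (TSS) of one of these genes. There were 3417 such positions among 1140618 in the genome, 1964 in SOX genes and 1453 in T-box genes. Of the 3417 positions, 2253 were in promoters (within 2 kb of any TSS) and 1164 in gene bodies outside the promoters.

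Methylation was measured by ERRBS, a bisulphite sequencing method that reads CpG-rich fragments of the genome, in mammary tissue of female mice. PyMT mice are heterozygous for the MMTV-PyVT transgene on the FVB background. In this transgene the mouse mammary tumor virus promoter drives polyoma middle T in mammary epithelial cells, and the mice form mammary tumors. They were taken at hyperplasia (week 6, n = 2), adenoma/MIN (mammary intraepithelial neoplasia; week 8, n = 3), early carcinoma (week 10, n = 3) and late carcinoma (week 12, n = 2). The controls were normal mammary glands of FVB females without the transgene, 3 at each of weeks 6, 8, 10 and 12. Each sample came from bulk tissue, with no sorting of cells, so a change in the share of a cell type and a change of methylation within cells cannot be told apart in any value below. The samples held 1314077 to 1435757 positions at a mean coverage of 60.2 to 79.2 reads, and the member positions had a median coverage of 71.2 reads. FVB week 8 replicate 2 stood apart from the other controls, and the results that turn on it are given with and without it. PyMT week 8 replicate 1 stood apart from the other mice on the X chromosome. The 472 X-linked promoters averaged 12.9% in this mouse and between 30.9% and 36.3% in the other 21. It had 27840 covered X positions against 30627 to 33659, and its 235 Y positions lay within the range of the others (222 to 252). Why this mouse differed was not tested. The genes described here are autosomal. Of the 50 promoters, gene bodies and segments called between PyMT and FVB mice, 0 lost their call without this mouse. The stage differences that did are named below.

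SOX proteins bind DNA through an HMG box and bend it, and T-box proteins bind through the T-box domain named after the Brachyury gene. Both families hold regulators of stem and progenitor cells: Sox9 and Sox10 act in mammary progenitor cells, and Tbx3 is required for the mammary gland to form. Methylation of CpGs in a promoter usually accompanies silencing, whereas gene bodies of active genes are often methylated, and the large unmethylated CpG-rich stretches over developmental genes are a common site of gained methylation in cancer.

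Segments are runs of covered positions with gaps of at most 100 bp. Of those called between PyMT and FVB mice, the ones shown have at least 5 positions and the largest differences. They do not overlap an untranslated region, hold no more than 300 bases and are up to 3 in each direction, each from a different gene. A Sox7 segment is shown as well, chosen after its values were seen because its difference grew with stage. Capitals mark the CpGs measured in all 22 mice, and each sequence is the plus strand of GRCm38, the reference assembly of mm10. The Sox10 segment lies upstream of the gene at chr15:79166056-79166179, the Tbx21 segment spans an intron and a coding exon at chr11:97099785-97099933, and the Sox9 segment is in a coding exon at chr11:112785348-112785433; all of these lost methylation in PyMT mice. The Sox6 segment is in an intron at chr7:115893927-115893983, the Sox13 segment is in an intron at chr1:133393408-133393515 and the first Sox7 segment is upstream of the gene at chr14:63942206-63942374, and these gained methylation. The second Sox7 segment is in the intron just after the first exon, at chr14:63944151-63944303.
Sox10 upstream: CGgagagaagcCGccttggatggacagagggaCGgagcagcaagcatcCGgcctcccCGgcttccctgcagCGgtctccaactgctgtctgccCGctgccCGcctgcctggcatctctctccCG
Tbx21 intron and exon: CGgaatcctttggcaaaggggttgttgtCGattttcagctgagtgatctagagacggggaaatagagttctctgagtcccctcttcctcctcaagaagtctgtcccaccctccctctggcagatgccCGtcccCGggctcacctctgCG
Sox9 exon: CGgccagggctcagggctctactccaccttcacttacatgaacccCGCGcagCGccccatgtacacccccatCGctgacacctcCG
Sox6 intron: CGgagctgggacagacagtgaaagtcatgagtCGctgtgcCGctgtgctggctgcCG
Sox13 intron: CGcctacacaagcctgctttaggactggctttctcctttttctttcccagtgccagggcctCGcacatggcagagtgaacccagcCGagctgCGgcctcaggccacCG
Sox7 upstream: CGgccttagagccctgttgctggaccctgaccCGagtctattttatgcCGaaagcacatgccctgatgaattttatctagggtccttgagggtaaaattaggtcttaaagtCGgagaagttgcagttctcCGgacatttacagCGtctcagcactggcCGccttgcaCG
Sox7 intron: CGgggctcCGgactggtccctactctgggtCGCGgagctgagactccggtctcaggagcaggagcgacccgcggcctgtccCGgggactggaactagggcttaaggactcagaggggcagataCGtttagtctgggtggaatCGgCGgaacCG

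A position was called a differentially methylated cytosine (DMC) at a stage where a logistic regression of its methylated and unmethylated reads gave a q-value under 0.01 over all positions and the pooled methylation differed by at least 10 points between PyMT and age-matched FVB mice. Among the 3417 member positions, 67 were hyper-DMCs at hyperplasia (1.96%, against 2.62% of all positions), 96 at adenoma/MIN (2.81% against 3.2%), 120 at early carcinoma (3.51% against 4.39%) and 149 at late carcinoma (4.36% against 4.44%). Hypo-DMCs numbered 209 at hyperplasia (6.12% against 6.01% of all positions), 211 at adenoma/MIN (6.18% against 7.1%), 242 at early carcinoma (7.08% against 8.42%) and 234 at late carcinoma (6.85% against 8.53%). Over all member positions these shares were near or below the background. In all, 29 member positions were hyper-DMCs at all 4 stages (0.849% against 1.05%) and 87 were hypo-DMCs at all 4 stages (2.55% against 3.27%). The test takes reads rather than mice as the unit, and with a correction for overdispersion the counts fell to between 14 and 85 hyper-DMCs and between 66 and 151 hypo-DMCs per stage. The share of all positions called with the correction is not given here, so these counts are not set against the background.

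SOX and T-box genes are given apart for promoters and gene bodies. In promoters, hyper-DMCs took 1.04%, 2.01%, 3.05% and 4.71% of the 1444 SOX positions at weeks 6, 8, 10 and 12, and 0.494%, 1.24%, 1.61% and 2.22% of the 809 T-box positions. The promoter positions of all genes gave 0.887%, 1.15%, 1.91% and 2.29%. In gene bodies, hypo-DMCs took 23.1%, 22.05%, 27.2% and 27.0% of the 644 T-box positions at the 4 stages, and 4.62%, 6.35%, 7.5% and 6.35% of the 520 SOX positions. The body positions of all genes gave 12.9%, 14.7%, 17.4% and 17.4%. Positions of 1 gene share fragments and cells, and a few genes held most of the calls: of the 174 hypo-DMCs in T-box bodies at late carcinoma, 59 were in Tbx1, 47 in Tbx3, 27 in Tbx5 and 17 in Tbx2. Of the 68 hyper-DMCs in SOX promoters at late carcinoma, 28 were in Sox30 and 21 in Sox7. The difference between the families was not tested.

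**Figure D1:**
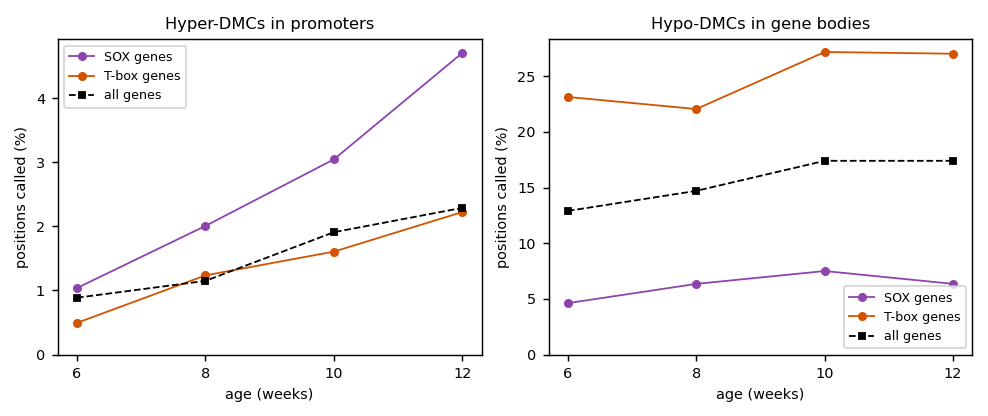
Percent of positions called hyper-DMCs in promoters (left) and hypo-DMCs in gene bodies (right), on the vertical axes, against age in weeks, for SOX genes, T-box genes and the positions of all genes in the same part. SOX promoters rise from 1.04% to 4.71% and T-box gene bodies lie between 22.05% and 27.2%, above the 12.9% to 17.4% of all gene bodies.

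To compare mice rather than reads, the percent methylation was averaged over the positions of each promoter and each gene body in each mouse and fitted with limma, over all features of the genome with at least 3 positions. A feature was called where the PyMT minus FVB difference, averaged over the 4 weeks, had an adjusted p under 0.05 and was at least 5 points. Of the 32 genes, 30 had a testable promoter (Sox5 and Tbx19 had no promoter position covered in all mice) and 26 a testable gene body. A single member promoter was called higher in PyMT, that of Sox30 (3.33% of the 30, against 4.06% of all promoters), and Sox10 and Sox15 were called lower (6.67% against 6.52%). Of the gene bodies, those of Sox21, Eomes and Sox12 were called higher (11.5% of the 26, against 10.6% of all bodies) and 10 were called lower (38.5% against 32.8%). With the limit of 5 points these shares were near the background. With an adjusted p under 0.05 and no limit on size, 12 of the 30 promoters were higher and 7 lower. Both shares were above those of all promoters, 17.011% higher and 16.9501% lower. This difference from the background was not tested, and the promoters were not matched for their level or number of positions. By family, 8 of 12 T-box bodies and 2 of 14 SOX bodies were called lower, and the median difference was -8.46 points in T-box bodies, 0.32 points in SOX bodies and -1.71 points over all 11438 bodies. The member promoters were little methylated, with a median of 2.79% in FVB mice against 0.685% over all promoters. Their median difference was 0.14 points. The member bodies were less methylated than most, with a median of 28.1% in FVB mice against 77.0% over all bodies.

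**Figure D2:**
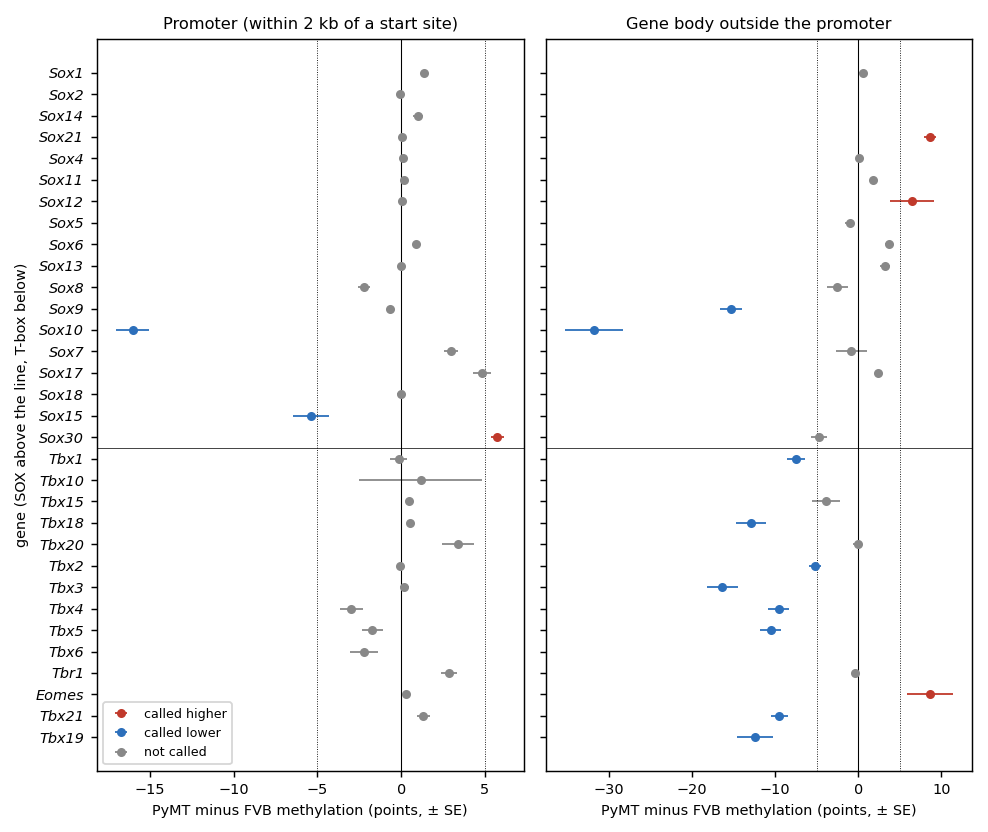
PyMT minus FVB difference in percentage points, averaged over the 4 weeks (horizontal axes, with the limma standard error), for the promoter (left) and the gene body (right) of each gene, SOX genes above the line and T-box genes below. Dotted lines mark 5 points, red and blue points are called higher and lower, and the axes differ between panels. The Sox10 promoter stands at -16.0 points and its body at -31.8, and 8 of the 12 T-box bodies are called lower.

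Sox1 and Sox2, group B1 factors that keep neural and pluripotent progenitors undifferentiated, had promoters close to unmethylated. The Sox1 promoter (90 positions) lay between 0.828% and 1.57% in FVB mice and between 1.93% and 3.93% in PyMT mice. The groups did not overlap, yet the difference was 1.36 points (SE 0.14, limma adjusted p = 4.8e-07) and stayed under the limit for a call, and the 6 body positions gave 0.57 points (limma adjusted p = 0.23). The Sox2 promoter (116 positions) had a median of 1.80% in FVB and 1.73% in PyMT mice and held no DMC at any stage. Among group B2, which counteracts B1 in neural differentiation, the Sox14 promoter (87 positions) had a median of 2.82% in FVB and 3.57% in PyMT mice. It held 2, 3, 7 and 9 hyper-DMCs at the 4 stages, of which 2, 3, 7 and 6 lay in a segment of 11 positions over the end of the coding exon and the 3′ UTR. That segment had values of 6.74%, 8.10% and 11.5% (lowest, median, highest) in FVB mice and of 6.26%, 17.6% and 28.2% in PyMT mice. Its difference was 10.4 points (SE 1.7, limma adjusted p = 6.0e-05). The lowest PyMT mouse, at week 6, was below every control, and the other PyMT mice were at 14.8% or above.

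Sox21 had an unmethylated promoter and a methylated end. The promoter (138 positions, all shared with the promoter of Gm4675) stayed between 0.269% and 1.13% in every mouse and held no DMC. The body (39 positions) had values of 3.84%, 4.80% and 7.34% in FVB mice and of 9.35%, 12.9% and 17.8% in PyMT mice, with no overlap and a difference of 8.61 points (SE 0.74, limma adjusted p = 1.9e-08). Most of it came from a segment of 10 positions in the 3′ UTR, 2712 bp from the TSS (chromosome 14, 118234232 to 118234404). The segment lay between 9.12% and 22.03% in FVB mice and between 30.7% and 50.1% in PyMT mice, a difference of 26.1 points (SE 2.2, limma adjusted p = 4.2e-08). Of its 10 positions, 9 were already hyper-DMCs at hyperplasia, all 10 were at late carcinoma and 8 were at all 4 stages. The plot of methylation along the genes shows the flat promoter and the step at the end of Sox21.

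The group C genes Sox4, Sox11 and Sox12 are active in progenitor cells and in tumors of several tissues. Their promoters (72, 150 and 224 positions) had medians between 0.114% and 2.83% in PyMT and in FVB mice, and none was called. The Sox4 promoter and body and the Sox12 promoter held no DMC. The 17 body positions of Sox11, all in the 3′ UTR, lay between 1.52% and 3.69% in FVB mice. In PyMT mice they had 2.79% and 3.39% at week 6, 1.93% to 3.57% at week 8, at least 4.18% at week 10, and 5.33% and 8.00% at week 12, so weeks 6 and 8 overlapped the controls and weeks 10 and 12 did not. The 5 body positions of Sox12 had values of 53.7%, 76.3% and 83.9% in FVB mice and of 76.7%, 80.8% and 87.0% in PyMT mice. Their difference of 6.43 points (SE 2.6, limma adjusted p = 0.041) was the one lost most often among the called promoters and bodies: it was not called in 13 of the 22 fits that left out 1 mouse. The lowest control, at 53.7%, was FVB week 8 replicate 2, and without it the difference was 4.38 points (limma adjusted p = 0.028), under the limit.

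Group D is Sox5, Sox6 and Sox13, long genes whose products lack a transactivation domain and work as partners of other factors. They held 39 of the 190 member segments tested and 8 of the 11 that gained methylation (20.5% of the 39, against 6.32% of all segments). Of the 39, 1 lost methylation (2.56%, against 16.1% of all segments). All of them come from these few genes, and they were not set against segments of the same control level. The Sox13 promoter (91 positions) was unmethylated, at medians of 0.239% in FVB and 0.230% in PyMT mice. Its body (76 positions) had medians of 47.5% in FVB and 51.0% in PyMT mice. The body difference of 3.19 points (limma adjusted p = 1.8e-04) was under the limit for a call. Within that body 4 segments gained methylation, by 22.3, 20.9, 14.4 and 12.6 points, at 15680, 15051, 31108 and 30751 bp from the TSS. The first of them lay between 41.0% and 60.3% in FVB mice and between 61.3% and 83.5% in PyMT mice, without overlap (SE 2.3, limma adjusted p = 4.0e-07). The Sox6 promoter (71 positions, 61 shared with Sox6os) had a median of 1.54% in FVB and 2.52% in PyMT mice, and its body (102 positions) lay between 35.2% and 37.7% in FVB mice and between 38.2% and 42.3% in PyMT mice. The groups did not overlap in the body, with a difference of 3.73 points (SE 0.51, limma adjusted p = 5.5e-06). Of the 3 Sox6 segments that gained methylation, all in introns, the one with the largest difference held 3 positions and went from 54.1%, 61.6% and 71.5% in FVB mice to 80.7%, 88.7% and 96.6% in PyMT mice (26.6 points, SE 2.6, limma adjusted p = 2.3e-07). The printed Sox6 segment had values of 43.4%, 53.5% and 65.5% in FVB and 44.9%, 75.9% and 83.5% in PyMT mice, and its groups overlapped through a PyMT mouse of week 6 at 44.9% and 1 of week 12 at 63.3%.

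Sox5 moved in both directions within 1 gene. Its body (84 positions) had medians of 75.3% in FVB and 74.7% in PyMT mice, a difference of -1.01 points (limma adjusted p = 0.11). One intronic segment of 3 positions, 57160 bp from the nearest TSS, had values of 44.0%, 57.6% and 72.4% in FVB mice and of 17.8%, 22.04% and 33.7% in PyMT mice. This was a difference of -33.8 points with no overlap (SE 2.5, limma adjusted p = 8.9e-09), and all 3 positions were hypo-DMCs at all 4 stages. Another intronic segment, 25202 bp from a TSS, went the other way, with a median of 81.4% in FVB and 94.2% in PyMT mice (11.4 points, limma adjusted p = 1.3e-03). Without FVB week 6 replicate 3 that difference was 9.90 points, just under the limit of 10 points for a segment.

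Group E is Sox8, Sox9 and Sox10, which direct neural crest, glial and sex determination programs and act in mammary progenitors. Among all members, Sox10 had the largest loss of a promoter, of a body and of a segment. The Sox10 promoter (41 positions) had values of 16.4%, 22.8% and 26.2% in FVB mice and of 3.93%, 5.84% and 9.36% in PyMT mice. The highest PyMT mouse was below the lowest control, and the difference was -16.0 points (SE 0.98, limma adjusted p = 1.2e-09). The 10 body positions had values of 45.2%, 59.8% and 82.5% in FVB mice and of 19.0%, 27.1% and 38.8% in PyMT mice (-31.8 points, SE 3.5, limma adjusted p = 3.5e-07). Without FVB week 8 replicate 2, the control at 82.5%, the body difference was -29.6 points. Within 500 bp of the TSS, where 3 positions were covered, the difference was -8.67 points, and most of the promoter difference lay in the printed segment 1627 bp upstream, which also overlaps Gm10863. That segment had values of 40.3%, 60.5% and 70.0% in FVB mice and of 10.2%, 15.6% and 26.9% in PyMT mice (-42.3 points, SE 2.9, limma adjusted p = 5.5e-09).

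In the printed Sox10 sequence, 13 of the 14 positions were hypo-DMCs at all 4 stages. The exception was the plus-strand cytosine at 79166104, which read 0.77% in FVB and 0% in PyMT mice, while the cytosine opposite it read 71.6% and 16.4%. Why the strands of this CpG read differently was not tested, and the bases of these mice were not checked there. Whether the plus-strand values are methylation levels was therefore not tested. An intronic segment of 4 positions 2614 bp into Sox10 had the largest difference of any member segment, from 48.5%, 69.1% and 76.0% in FVB mice to 7.34%, 17.1% and 32.8% in PyMT mice (-49.9 points, SE 3.3, limma adjusted p = 3.2e-09). In a coding exon 5181 bp from the TSS, 5 positions differed by -19.9 points (SE 4.8, limma adjusted p = 2.1e-03), with overlap between the groups.

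**Figure D3:**
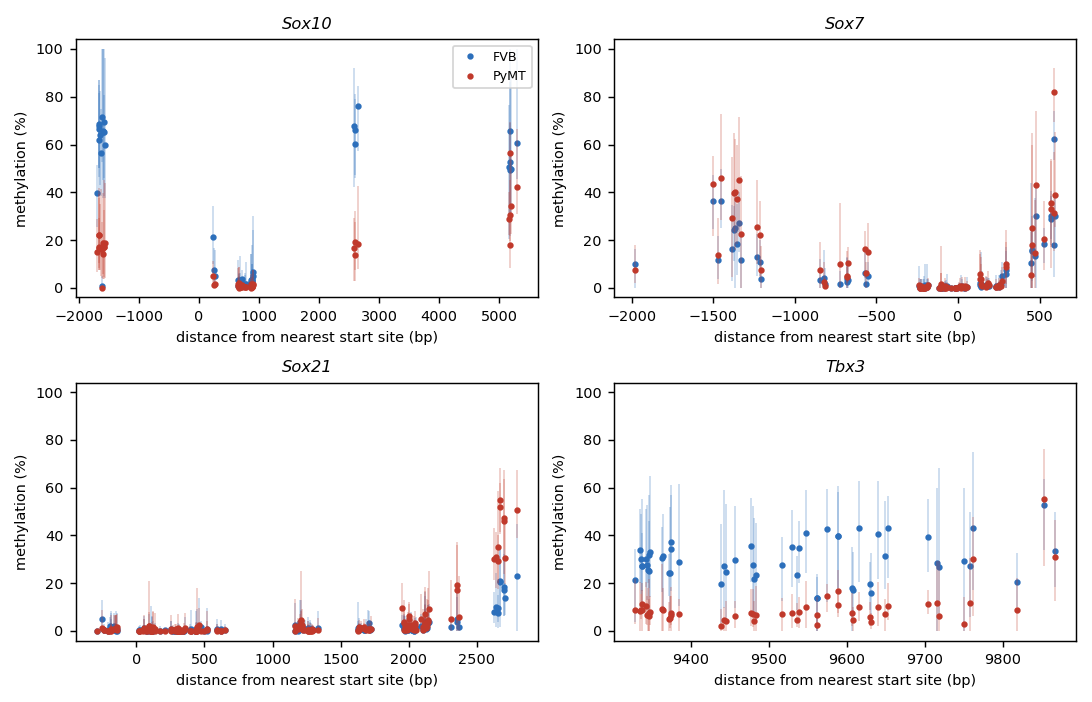
Methylation in percent (vertical axes) at each covered position against the distance from the nearest TSS in bp (horizontal axes) for Sox10, Sox7, Sox21 and the body of Tbx3. Points are means over the 12 FVB (blue) and 10 PyMT (red) mice and vertical lines span the lowest to the highest mouse; Sox10 is lower in PyMT mice upstream and in the intron and little different just downstream of its start, Sox21 is higher in PyMT mice at its end, and the Tbx3 positions lie lower in PyMT mice nearly throughout.

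The Sox9 promoter (80 positions) was close to unmethylated, with a median of 1.03% in FVB and 0.341% in PyMT mice. Its 8 body positions, all in the printed coding exon segment, had values of 10.5%, 23.9% and 25.9% in FVB mice and of 2.95%, 3.41% and 8.80% in PyMT mice (-15.3 points, SE 1.3, limma adjusted p = 1.8e-08). The controls were 10.5%, 12.6% and 16.5% at week 6, 12.3%, 16.8% and 25.9% at week 8, 23.5%, 24.3% and 24.3% at week 10 and 24.5%, 24.6% and 25.1% at week 12. The PyMT mice stayed between 2.95% and 8.80% at every week, so the difference went from -7.11 points at week 6 to -20.1 points at week 12. The change of the difference between weeks 6 and 8 and weeks 10 and 12 was -9.81 points and did not pass the test (limma adjusted p = 0.078). The Sox8 promoter (26 positions, all shared with Cerox1) had a median of 6.49% in FVB and 4.05% in PyMT mice, a difference of -2.22 points (limma adjusted p = 1.1e-04) under the limit. Within that promoter, an intron segment of 4 positions 1161 bp from the Sox8 TSS differed by -14.2 points (SE 2.4, limma adjusted p = 8.3e-05). The Sox8 body (9 positions) differed by -2.49 points (limma adjusted p = 0.097).

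Group F, Sox7, Sox17 and Sox18, directs endothelial and endodermal cells, and for 2 of its genes, Sox7 and Sox17, the difference from the controls was larger at the later stages in limma on the percent scale. The Sox7 promoter (91 positions) had 5.52% and 7.52% in the mice at week 6, 8.20%, 8.58% and 9.48% at week 8, 7.73%, 10.0% and 11.7% at week 10, and 12.0% and 13.8% at week 12. The controls stayed between 5.82% and 7.56% at all weeks, so hyperplasia overlapped the controls and late carcinoma did not. The difference was 2.99 points over the 4 weeks (limma adjusted p = 2.0e-05) and larger by 3.75 points (SE 0.86) at weeks 10 and 12 than at weeks 6 and 8 (limma adjusted p = 0.024). Hyper-DMCs in the Sox7 promoter numbered 1, 6, 10 and 21 at the 4 stages. Without PyMT week 6 replicate 2 or without PyMT week 12 replicate 1 the stage change was 3.25 or 3.29 points and was not called (limma adjusted p = 0.080 and 0.075). Within 500 bp of the TSS the difference over the 4 weeks was 0.59 points, and the positions with larger differences lay on both flanks. The upstream printed segment had values of 19.2%, 23.0% and 28.3% in FVB mice and of 16.6%, 37.0% and 49.7% in PyMT mice (12.2 points, SE 2.8, limma adjusted p = 1.6e-03), and 9.41 points without PyMT week 6 replicate 1, under the limit. The 8 positions of the Sox7 body outside the promoter differed by -0.82 points (limma adjusted p = 0.72).

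The intronic Sox7 segment, 521 bp from the TSS, was the member segment whose difference grew most with stage. Its PyMT mice had 18.9% and 19.8% at week 6, 25.7%, 26.5% and 29.3% at week 8, 30.5%, 34.7% and 41.8% at week 10, and 43.2% and 45.7% at week 12, whereas the controls lay between 20.7% and 29.4%. Both week 6 mice were below all controls and all week 10 and 12 mice were above them. The difference was larger by 17.8 points at weeks 10 and 12 than at weeks 6 and 8 (limma adjusted p = 0.0094). Of its 11 positions, 2 were hypo-DMCs at hyperplasia and 8 were hyper-DMCs at late carcinoma. On a scale of log2 ratios of methylated to unmethylated reads this stage difference was not called.

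The Sox17 promoter (19 positions) had values of 1.70%, 2.37% and 3.68% in FVB mice and of 3.71%, 7.40% and 11.8% in PyMT mice. The groups did not overlap, and the difference of 4.82 points (SE 0.54, limma adjusted p = 1.3e-06) was just under the limit of 5 points. The level was 9.76% and 11.8% in the late carcinoma mice. The Sox17 body (137 positions) lay between 1.03% and 1.45% in FVB mice and between 1.67% and 5.22% in PyMT mice, a difference of 2.36 points (SE 0.18, limma adjusted p = 4.7e-09) that was larger by 1.64 points at the later weeks (limma adjusted p = 0.038). That stage change was not called in 15 of the 22 fits that left out 1 mouse, nor on the scale of log2 ratios (limma adjusted p = 0.28). Its hyper-DMCs numbered 1, 2, 4 and 12 at the 4 stages. The Sox18 promoter (28 positions) had medians of 3.41% in FVB and 3.65% in PyMT mice and a difference of -0.03 points (limma adjusted p = 0.95).

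**Figure D4:**
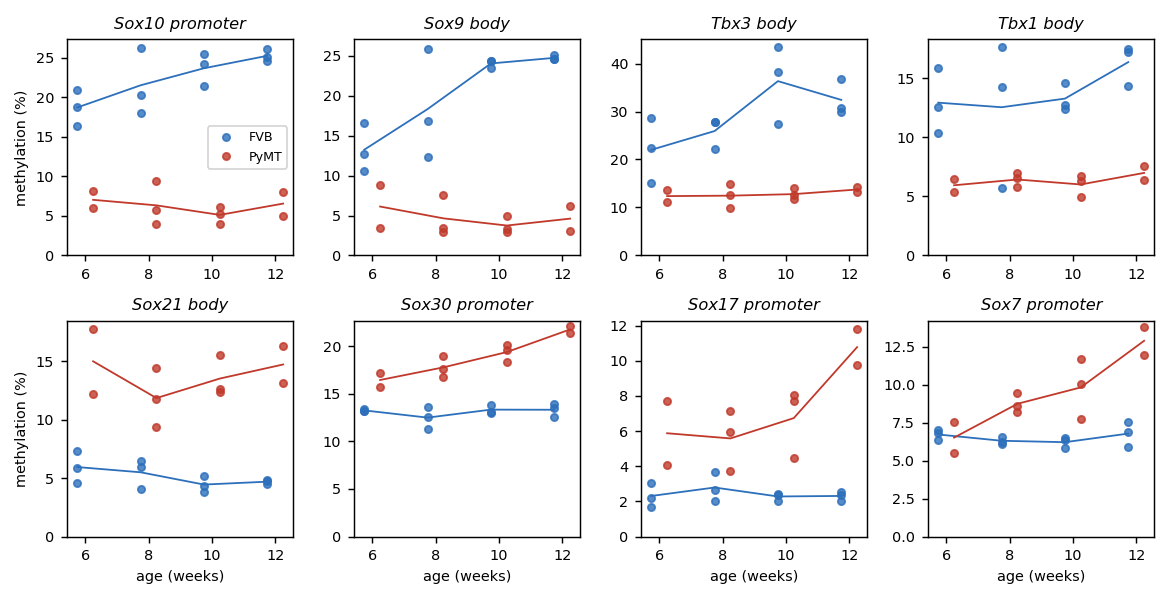
Methylation in percent (vertical axes, from 0) of 8 promoters or gene bodies in each mouse against age in weeks, FVB in blue and PyMT in red, with lines through the group means. The Sox30 promoter difference goes from 3.2 points at week 6 to 8.45 at week 12 and the Sox7 promoter difference from -0.205 to 6.12, while that of the Sox9 body goes from -7.11 to -20.1 points.

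The Sox30 promoter (115 positions; the gene is expressed in male germ cells) was the promoter called higher. It had values of 11.3%, 13.2% and 13.9% in FVB mice and of 15.8%, 18.7% and 22.2% in PyMT mice, without overlap (5.74 points, SE 0.41, limma adjusted p = 5.7e-09). The difference was 3.2 points at week 6 and 8.45 points at week 12, with 8, 17, 20 and 28 hyper-DMCs at the 4 stages, and the change between the early and late weeks was 3.01 points (limma adjusted p = 0.064). Its body (11 positions) went the other way by -4.76 points (limma adjusted p = 3.1e-04), under the limit. The Sox15 promoter, of a factor found in muscle progenitors and epithelium, rests on 5 positions and had values of 14.7%, 16.3% and 20.1% in FVB mice and of 8.08%, 11.0% and 17.8% in PyMT mice. The difference of -5.40 points (SE 1.1, limma adjusted p = 5.5e-04) was -4.19 points, under the limit, without PyMT week 12 replicate 1.

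Of the Tbx1 subfamily, regulators of pharyngeal, heart and mesoderm development, Tbx1 had the most positions. Its promoter (147 positions) had medians of 12.3% in FVB and 12.5% in PyMT mice and a difference of -0.16 points (limma adjusted p = 0.87). Its body (167 positions) had values of 5.73%, 14.3% and 17.7% in FVB mice and of 4.94%, 6.45% and 7.57% in PyMT mice (-7.44 points, SE 1.1, limma adjusted p = 1.1e-05). The groups overlapped only through FVB week 8 replicate 1, at 5.73%, and the other controls were at 10.4% or above. Its hypo-DMCs numbered 28, 24, 35 and 59 at the 4 stages. In Tbx1 a 3′ UTR segment of 12 positions had values of 6.60%, 24.3% and 32.2% in FVB mice and of 1.81%, 4.38% and 7.62% in PyMT mice (-19.3 points, SE 2.4, limma adjusted p = 3.5e-06). A neighbouring 3′ UTR segment of 23 positions differed by -10.7 points, and by -9.98 points, under the limit, without FVB week 6 replicate 3.

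The Tbx18 body rests on 5 positions, with values of 39.0%, 44.5% and 49.9% in FVB mice and of 24.1%, 30.0% and 41.1% in PyMT mice (-12.9 points, SE 1.8, limma adjusted p = 8.7e-06), while its promoter (130 positions) had medians of 2.01% and 2.38%. The Tbx15 promoter (67 positions) lay between 0.357% and 0.704% in FVB mice and between 0.797% and 1.33% in PyMT mice, a difference of 0.46 points without overlap (limma adjusted p = 1.4e-05). The Tbx15 body (24 positions) differed by -3.85 points (limma adjusted p = 0.052). One Tbx15 intron segment differed by -10.3 points (limma adjusted p = 4.3e-03) but fell under the limit in 5 of the fits that left out 1 control, FVB week 8 replicate 2 among them, where it was -9.47 points. The Tbx10 promoter had 3 positions, with medians of 76.0% in FVB and 74.6% in PyMT mice, and the Tbx20 promoter had 3, with medians of 1.49% and 4.73% and a difference of 3.40 points (limma adjusted p = 9.4e-03). The 11 body positions of Tbx20 differed by -0.07 points (limma adjusted p = 0.91).

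Tbx2, Tbx3, Tbx4 and Tbx5, which form a subfamily of limb, heart and mammary regulators, lie as 2 neighbouring pairs: Tbx2 and Tbx4 are 44.4 kb apart on chromosome 11 and Tbx3 and Tbx5 are 149.9 kb apart on chromosome 5. All of their bodies were called lower in PyMT mice. The Tbx3 body (66 positions) had values of 15.0%, 28.2% and 43.4% in FVB mice and of 9.89%, 12.9% and 14.9% in PyMT mice (-16.3 points, SE 1.8, limma adjusted p = 4.8e-07). The groups did not overlap, and the lowest control was a week 6 mouse. The difference was -9.64 points at week 6 and -23.5 points at week 10, with FVB mice at 15.0%, 22.5% and 28.6% at week 6 and at 27.4%, 38.2% and 43.4% at week 10, but the change between early and late weeks did not pass the test (-9.56 points, limma adjusted p = 0.22). Of the 66 positions, 33, 39, 51 and 47 were hypo-DMCs at the 4 stages and 26 at all 4. Nearly all lay in 1 segment of 53 positions over 539 bp, in the coding exon and intron 9598 bp from the TSS (chromosome 5, 119680562 to 119681100), with a median of 29.1% in FVB and 9.48% in PyMT mice (-20.2 points, SE 2.0, limma adjusted p = 2.9e-07). The Tbx3 promoter (89 positions, 80 shared with Tbx3os1) had medians of 5.88% and 6.06% and a difference of 0.19 points (limma adjusted p = 0.69).

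The Tbx5 body (82 positions) had values of 13.7%, 22.7% and 25.8% in FVB mice and of 7.65%, 11.1% and 15.1% in PyMT mice (-10.5 points, SE 1.2, limma adjusted p = 7.6e-07). The overlap came from 1 control of week 6 at 13.7%. Its promoter (25 positions) differed by -1.74 points (limma adjusted p = 0.039). The Tbx4 body (57 positions) had values of 25.2%, 32.1% and 35.5% in FVB mice and of 19.5%, 21.7% and 23.7% in PyMT mice, without overlap (-9.54 points, SE 1.3, limma adjusted p = 3.9e-06), and its promoter (55 positions) differed by -2.97 points (limma adjusted p = 2.4e-03), under the limit. A Tbx4 segment of 5 positions in the 3′ UTR had values of 47.8%, 61.8% and 68.0% in FVB mice and of 20.9%, 26.4% and 39.2% in PyMT mice (-33.0 points, SE 2.1, limma adjusted p = 2.6e-09), and all 5 positions were hypo-DMCs at all 4 stages. The Tbx2 body (109 positions) had values of 8.64%, 12.0% and 15.1% in FVB mice and of 5.19%, 6.84% and 9.08% in PyMT mice (-5.25 points, SE 0.72, limma adjusted p = 5.5e-06). Without FVB week 6 replicate 3 or without FVB week 8 replicate 3 it was -4.81 or -4.91 points, under the limit. A segment of 8 positions over the last coding exon and the 3′ UTR of Tbx2 lay between 28.2% and 45.2% in FVB mice and between 8.16% and 22.8% in PyMT mice (-22.2 points, SE 2.1, limma adjusted p = 1.4e-07), while the Tbx2 promoter (96 positions, 95 shared with 2610027K06Rik) differed by -0.06 points (limma adjusted p = 0.86).

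Tbx21 (T-bet) directs type 1 T helper cells and Eomes acts in cytotoxic lymphocytes and early mesoderm. The Tbx21 promoter (27 positions) had medians of 1.92% in FVB and 3.10% in PyMT mice, a difference of 1.30 points (limma adjusted p = 0.013) under the limit. Its body (32 positions) had values of 39.7%, 46.1% and 51.8% in FVB mice and of 34.4%, 36.9% and 39.2% in PyMT mice, without overlap (-9.48 points, SE 1.05, limma adjusted p = 4.0e-07). The printed Tbx21 segment lay between 76.9% and 90.2% in FVB mice and between 60.6% and 74.9% in PyMT mice (-16.3 points, SE 1.6, limma adjusted p = 2.2e-07). The Eomes promoter (125 positions) had medians of 0.765% and 1.16% and held no DMC, and its 3 body positions had values of 51.2%, 60.2% and 74.9% in FVB and of 56.0%, 68.2% and 84.1% in PyMT mice (8.67 points, SE 2.7, limma adjusted p = 0.00999). The groups overlapped widely, and the difference was 20.2 points at week 10 against 3.51 points at week 12. Tbr1, a cortical neuron factor, had a promoter (30 positions) at 6.34%, 7.94% and 10.2% in FVB and 7.63%, 11.1% and 13.7% in PyMT mice (2.83 points, limma adjusted p = 1.2e-04) and a body (84 positions) that differed by -0.38 points (limma adjusted p = 0.16). The Tbx6 promoter (12 positions) differed by -2.24 points (limma adjusted p = 0.047). Tbx19, a pituitary factor, had 4 body positions with values of 61.9%, 74.8% and 81.8% in FVB and of 57.1%, 61.9% and 67.0% in PyMT mice (-12.4 points, SE 2.15, limma adjusted p = 6.6e-05).

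The 190 member segments with at least 3 positions put these changes on 1 scale. Of them, 11 gained at least 10 points (5.79%, against 6.32% of all 84560 segments) and 23 lost at least 10 points (12.1% against 16.1%), at a limma adjusted p under 0.05. All 11 gained segments were in SOX genes (Sox5, Sox6, Sox7, Sox13, Sox14 and Sox21; 18 of the 82 T-box segments were higher at an unadjusted p under 0.05 in limma), and they were 10.2% of the 108 SOX segments. Of the 23 lost segments, 17 were in T-box genes (20.7% of 82, against 16.1%) and 6 in SOX genes (5.56% of 108). The difference between the families was not tested. The T-box segments lost lay in 9 of the 14 T-box genes, none of them upstream of a TSS, with 9 wholly in introns, 5 touching a coding exon and 4 a 3′ UTR. Of the 65 uncalled T-box segments, 11 were upstream, 21 wholly in introns, 28 touched a coding exon and 3 a 3′ UTR. Of the 23 lost segments 4, of the 11 gained ones 2 and of the 156 uncalled member segments 91 were centred within 2 kb of a TSS. The CpG density of the called segments was lower than that of the uncalled member segments: the 500 bp around the centre held a median of 3.4 CpGs per 100 bp for lost, 2.2 for gained and 5.4 for uncalled segments. Among all segments of the genome the medians were 2.0, 2.4 and 3.4.

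Calls are also given by the level in the controls, since a segment under 10% in FVB mice cannot lose 10 points. Of the member segments under 10% methylated in FVB mice, 1 of 103 gained and 0 lost (21 of the 103 were lower at an unadjusted p under 0.05 in limma), and over the genome 1.09% of such segments gained and 0% lost. Of those between 10% and 50%, 3 of 41 gained and 12 lost (7.32% and 29.3%, against 20.5% and 28.4% over the genome), and of those at 50% or over, 7 of 46 gained and 11 lost (15.2% and 23.9%, against 5.71% and 22.2%). The shares lost were close to those of all segments at the same level. The plot of member segments shows the SOX gains at both low and high control levels.

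**Figure D5:**
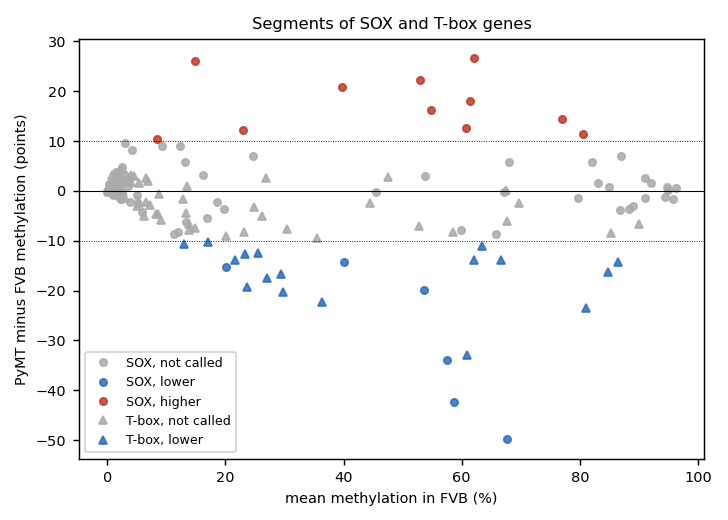
PyMT minus FVB difference in percentage points (vertical axis) against mean methylation in FVB mice in percent (horizontal axis) for each of the 190 segments, circles for SOX and triangles for T-box genes. Called gains (red) are all circles, reaching 26.6 points, and called losses (blue) reach -49.9 points; dotted lines mark 10 points.

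The difference between PyMT and FVB mice was compared between weeks 10 and 12 and weeks 6 and 8, the malignant and the premalignant stages. With the limit of 10 points the Sox7 intron segment was the single member segment called larger (0.526% of 190, against 0.177% of all segments), and none was called smaller (0% against 0.222%; 9 of the 190 had an unadjusted p under 0.05 in limma). With no limit on size, segments of Sox17, Sox11 and Sox1 also had a larger difference at the later stages. The Sox17 segment (78 positions) lay between 0.74% and 1.58% in FVB mice, was 1.53% and 2.30% in the PyMT mice at week 6 and 4.26% and 5.28% at week 12 (larger by 1.998 points, limma adjusted p = 0.0036). The Sox11 3′ UTR segment (17 positions) averaged 3.09%, 2.70%, 5.89% and 6.66% at weeks 6, 8, 10 and 12 in PyMT mice, with controls between 1.52% and 3.69% (larger by 3.62 points, limma adjusted p = 0.041). The Sox1 coding segment (45 positions) was 1.10% and 1.25% at week 6 and 3.09% and 4.95% at week 12, with controls between 0.505% and 1.24% (larger by 1.60 points, limma adjusted p = 0.045). In the 22 fits that left out 1 mouse, the Sox17 segment was called in all, while the Sox11 segment was not called in 17 and the Sox1 segment in 18. Without PyMT week 8 replicate 1 the Sox1 segment gave 1.62 points (limma adjusted p = 0.068) and the Sox17 body 1.55 points (limma adjusted p = 0.064). On the scale of log2 ratios of reads, 0 of these stage differences were called by limma. Over the 190 segments, 21 had an unadjusted p under 0.05 for a larger difference.

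Related genes outside the list are given for comparison. Of Sox3, Sry, T, Tbx22 and Mga, 4 had a testable promoter and of Lef1, Tcf7, Tcf7l1 and Tcf7l2, HMG-box factors of Wnt signalling, all 4 had, and 0 of these promoters were called by limma, with 2 of 4 in each set at an unadjusted p under 0.05. In Sox3, which is X-linked, PyMT week 8 replicate 1 had 3.25% and the other mice 20.9% to 33.4%. The T promoter (Brachyury, 57 positions) had medians of 2.48% in FVB and 4.26% in PyMT mice and differed by 1.72 points (limma adjusted p = 6.4e-05). Of the bodies of the HMG-box factors, 2 of 4 were called lower, against 32.8% of all bodies: Lef1 differed by -7.82, Tcf7 by -5.74, Tcf7l1 by -3.58 and Tcf7l2 by 1.12 points. The bodies of T and Mga were not called, at -4.17 and -3.92 points.

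Marker genes of the cell types in the tissue also differed between PyMT and FVB mice. Over all promoters, 6.52% were called lower and 4.06% higher. The mean promoter methylation of 8 luminal markers lay between 3.27% and 5.12% in PyMT mice and between 9.18% and 13.9% in FVB mice, and the promoters of Krt18, Elf5 and Gata3 were called lower. The 2 basal markers with a promoter value, Krt5 and Myh11, were called lower as well, with a list mean of 30.4% to 36.5% in PyMT and 34.3% to 47.4% in FVB mice. Of the adipocyte markers, 2 of 4 promoters were called lower (42.0% to 50.03% in PyMT and 50.9% to 58.8% in FVB mice). The endothelial (3 promoters, 1 called higher and 1 lower) and leukocyte markers (2 promoters, 1 called higher and 1 lower) had overlapping list means, of 31.1% to 37.0% and 31.1% to 38.8% for endothelium and of 58.8% to 80% and 66.6% to 74.0% for leukocytes, in PyMT and FVB mice. In the gene bodies of the markers (32.8% of all bodies called lower and 10.6% higher), 4 of 7 luminal genes were called lower, with Epcam at -27.3 points, while Krt8 and Elf5 were called higher, by 8.36 and 6.47 points. Of the other lists, 2 of 3 basal, 1 of 3 adipocyte, 1 of 4 endothelial (Tie1, -6.09 points) and 2 of 3 leukocyte bodies (Itgam, -15.1 points, and Ptprc, -10.6 points) were called lower and 0 higher. The part of cell composition in the Sox and T-box differences was not tested.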

How the data were processed

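ERRBS libraries of mammary tissue from 10 PyMT and 12 FVB mice were aligned by the authors to mm10 with Bismark and called with methylKit; versions are not given in the sources used here. The deposited tables give, per covered cytosine, coverage (a count of reads the authors made from the aligned reads, not normalized) and the percent of reads with C and with T, at a minimum of 10 reads. Methylated reads were recovered as coverage times that percent, rounded to whole reads, and the 1140618 positions covered in all 22 mice were kept. Mouse groups follow the label (PyMT or FVB) and week, and the 2 outlying samples that the study removed were not analysed here. PCR copies carry no molecular identifiers, so read-based tests cover counting error only.

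Promoters (within 2 kb of a RefSeq TSS, GRCm38.p6), gene bodies and segments (gaps of at most 100 bp, at least 3 positions) were averaged per mouse. They were fitted with limma 3.58.1 (R 4.3.3) in 8 groups of label (PyMT or FVB) and week. Adjusted p-values were by Benjamini-Hochberg over all features, with a minimum difference of 5 points (10 for segments). DMCs came from a logistic likelihood ratio test on pooled reads per stage (Benjamini-Hochberg q-value under 0.01, in place of methylKit's own q-values, and 10 points). Both were tested on simulated data. The counts simulated for the read test had no spread between mice, so its error rate under such spread was not tested. The read test takes reads, and limma takes mice, as replicates; nothing in the labels ties mice to litters. The genes named are all 32 members, which, like the lists of related and marker genes, were chosen with earlier results of these data known. Segments were named by their call, and those of the stage contrast by an adjusted p under 0.05. Sequences are from the GRCm38 reference genome (NCBI RefSeq). Alternatives were a log2 (M-value) scale, a coverage minimum of 20, merged strands, promoters within 500 bp, segments of at least 5 positions, no minimum difference, an overdispersion correction, a replicate block and leaving out each mouse; the X chromosome check was added after seeing the data. Tables were computed with Python 3.11.15, NumPy 2.4.6, SciPy 1.17.1 and pandas 2.3.3.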

Additional observations from a re-analysis of the deposited data

Results flagged for a closer look

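The difference between PyMT and FVB mice was larger at weeks 10 and 12 than at weeks 6 and 8 for 7 features, by a limma test of that change. They were the Sox7 promoter (3.75 points, adjusted p = 0.0244), its intronic segment 521 bp from the TSS (17.8 points, adjusted p = 0.00943), the Sox17 body (1.64 points, adjusted p = 0.0377) and a Sox17 segment within it (1.998 points, adjusted p = 0.00363), the Sox11 body (3.62 points, adjusted p = 0.0377), the Sox11 segment that holds the same 17 positions (3.62 points, adjusted p = 0.0406) and a Sox1 coding segment (1.60 points, adjusted p = 0.0446). Apart from the Sox7 segment, these changes were under 5 points on low levels. The groups by label and week held 2 or 3 mice, too few to look for single mice that stand apart within a group.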

How the results depend on the processing

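Of 50 calls over the 4 weeks, 40 held under all alternatives that gave a value, and none was reversed; of 1100 values with 1 mouse left out 28 lost the call, and of 179 other values 7 did. The calls lost with 1 mouse left out and not named above were the Tbx21 intron segment 6029 bp from the TSS (-9.88 points without FVB week 12 replicate 1) and the Sox14 segment (8.60 to 9.69 points without 1 of 3 PyMT mice). Of the 7 stage differences, 0 held under all alternatives: on the M-value scale their adjusted p was 0.212 to 0.543, and 68 of 154 values with 1 mouse left out and 17 of 27 others lost the call. With the overdispersion correction, member hyper- and hypo-DMCs were 14 and 66 at hyperplasia, 35 and 74 at adenoma/MIN, 76 and 151 at early carcinoma and 85 and 137 at late carcinoma. The DMC counts in this section have no share of all positions beside them and are not set against the background. With no minimum difference, 12 of 30 promoters were higher and 7 lower, against 17.011% and 16.9501% of all promoters. Of 26 bodies, 7 were higher and 11 lower, against 20.0035% and 46.3892% of all bodies. At this setting 47 segments were higher and 58 lower, and 4 segments had a larger difference at the later weeks. The share of all segments at this setting is not given here. With segments of at least 5 positions, 5 were higher and 15 lower, of fewer tested. On the M-value scale and at a coverage minimum of 20, 0 segments had a larger difference at the later weeks, and at that coverage 1 had a smaller one. The Sox7 intron segment had no value at that coverage, so it was not tested there. Leaving out 1 mouse at a time gave hyper-DMCs of 45 to 68, 72 to 103, 105 to 135 and 121 to 153 and hypo-DMCs of 131 to 229, 170 to 275, 220 to 250 and 181 to 231 at the 4 stages (131 at hyperplasia without PyMT week 6 replicate 1). It gave 1 to 2 promoters higher and 1 to 2 lower, 2 to 3 bodies higher and 9 to 11 lower, 10 to 12 segments higher and 21 to 25 lower, and 1 segment with a larger and 0 to 1 with a smaller difference at the later weeks (1 without FVB week 8 replicate 1). Replicate numbers are shared by the groups. The 10 pairs of a PyMT and an FVB mouse of 1 week and number deviated from their group means with r from -0.0404 to 0.0248. These values compare mice of the same week only. Whether a number marks a batch shared by mice of different weeks was not tested. With the replicate block, hyper-DMCs were 48, 96, 117 and 139 and hypo-DMCs 150, 207, 230 and 206, 1 promoter was lower, 1 body was higher, and 0 segments had a larger difference at the later weeks (adjusted p of the 7 stage differences 0.0922 to 0.22). Under the block the Sox15 promoter (-4.97 points), the Tbx2 body (-4.63), the Tbx1 3′ UTR segment (-9.84) and the Tbx15 segment (-8.01) were under the limit, and the Eomes and Sox12 bodies had adjusted p of 0.061 and 0.12; with strands merged the Tbx2 body was -4.66 points. The cause of these changes was not tested. Coverage limits single positions, and the number of mice per week limits the stage contrast.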
